A study of Mus musculus with 9 samples.

Results

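The transcriptome of long-term haematopoietic stem cells (LT-HSCs) was compared between mice lacking either Cxcl10 or Cxcr3, pooled as 1 contrast, and wild-type (WT) mice, to describe genes that moved the same way and by similar size in both knockouts. The 9 libraries were 3 WT, 3 Cxcl10-/- and 3 Cxcr3-/-, all from C57BL/6 mice of 6 to 8 weeks with no treatment named, and each held 500 to 800 bone marrow cells of 1 mouse sorted as negative for lineage markers, CD48 and CD135 and positive for c-Kit, Sca-1 and CD150. The deletions are named by genotype only, so whether Cxcl10 or Cxcr3 was missing from all cells or from some, and how it was removed, is not given in the sources used here. A gene counted as shared when it met 4 conditions: it passed a test of the mean of both knockouts against WT (edgeR's quasi-likelihood test on the expected counts, Benjamini-Hochberg adjusted p under 0.05), its log2 fold change had the same sign in both, the smaller change was at least 0.5 times the larger, and all 6 knockout libraries lay beyond all 3 WT libraries. The last condition was asked for both in FPKM (fragments scaled to transcript length and library size) and in CPM, the count as a share of the library's total, scaled with TMM factors, which correct for a few genes taking a large part of a library. Of 22322 genes in the table, 10866 had a mean of at least 1 FPKM and were tested, and 3 met all 4 conditions: Rgs18 and Sdcbp, lower in the knockouts, and Rpsa, higher. Without the first condition 282 genes met the other 3.

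CXCR3 is a G protein-coupled receptor that binds the chemokines CXCL9, CXCL10 and CXCL11, all induced by interferon-gamma, and is best known for guiding activated T cells into inflamed tissue. Ligand and receptor act in sequence, so the loss of one removes a signal that also needs the other. CXCL9 can still reach the receptor in mice without CXCL10. LT-HSCs are rare, mostly quiescent marrow cells that can renew themselves and rebuild all blood lineages.

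The 9 libraries held between 12098498 and 17904629 expected counts. Cxcl10 had 0 counts in the 3 Cxcl10-/- libraries, 36, 84 and 3 in WT and 112, 553 and 176 in Cxcr3-/-. Cxcr3 had 8 counts in 1 WT library and 0 in the others, so its level checks no label. Among ligands, Cxcl9 stood at 3.6, 4.73 and 4.67 FPKM in Cxcl10-/-, 1.19, 1.92 and 0.17 in Cxcr3-/- and 0.14, 0.05 and 0.77 in WT, and the Cxcr3-/- and WT values overlapped (both knockouts against WT 2.68 ± 1.04 on the log2 scale, SE; adjusted p = 0.315, edgeR). The summed FPKM of 7 LT-HSC markers (Procr, Hlf, Mecom, Fgd5, Slamf1, Kit and Ly6a) was 563 ± 54.3 in WT, 556 ± 32.0 in Cxcl10-/- and 509 ± 27.1 in Cxcr3-/- (SD, n = 3), although Slamf1, which encodes the sort marker CD150, stood at 0.69 to 4.12 FPKM in Cxcl10-/- against 5.23 to 9.24 in the other libraries, and Kit, the gene of the sort marker c-Kit, at 45.8 to 81.4 against 98.1 to 127. Cxcl10-/- stood apart in other respects. The share of counts from the mitochondrial genome averaged 12.9 ± 0.258% for WT, 3.89 ± 0.287% for Cxcl10-/- and 10.8 ± 0.479% for Cxcr3-/-, without overlap between the groups. An exact permutation test of the 6 knockout libraries together against the 3 WT gave a two-sided p of 0.0238 (smallest possible 0.0119). It does not test Cxcl10-/- by itself. The summed FPKM of endothelial markers was 128 ± 18.1 in WT, 734 ± 121 in Cxcl10-/- and 138 ± 32.5 in Cxcr3-/-, and that of stromal and bone markers 20.6 ± 1.76, 200 ± 162 and 22.7 ± 3.16. Cdh5, the endothelial cadherin gene, averaged 0.587, 6.85 and 0.613 FPKM in that order. For the endothelial and the stromal and bone sums the same permutation test gave p = 0.226 and 0.393. Bulk libraries cannot tell fewer cells of a type from less RNA per cell.

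In the test of both knockouts against WT, 19 genes were called (0.175% of those tested), 2 higher (0.0184%) and 17 lower (0.156%). Before adjustment, 1323 genes had a p under 0.05, against 543.3 for chance alone. Only 3 of the 19 had changes of similar size in the 2 knockouts. All 19 were larger in Cxcl10-/- and were called there alone as well, and 16 of the 19 also differed between the knockouts. Against WT on its own, Cxcl10-/- had 785 calls (7.22%) and Cxcr3-/- had 0 (0%), with 681 genes at an unadjusted p under 0.05 and a smallest adjusted p of 0.272. DESeq2 called 68 genes in Cxcr3-/- and limma-voom with weights per genotype 42, while limma on log2(FPKM + 1) called 0. The 2 knockouts differed from each other at 1142 genes (10.5%). The comparisons with WT share the 3 WT libraries. The counts moved with those libraries: without WT replicate 1, 2 or 3 there were 8, 9 and 11 calls and 0, 1 and 1 shared genes. Without Cxcl10-/- replicate 1, 2 or 3 there were 52, 61 and 48 calls, with 5, 7 and 5 shared. Without Cxcr3-/- replicate 1 or 3 there were 12 and 11 calls, with 1 shared gene each, and without Cxcr3-/- replicate 2 there were 21 calls with 8 shared.

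Rgs18 fell most clearly in both knockouts. It encodes a regulator of G protein signalling that speeds the switching-off of G alpha subunits and is expressed mainly in blood cells, platelets and their precursors above all. Its level was 821, 687 and 643 FPKM in WT, 411, 337 and 358 in Cxcl10-/- and 370, 453 and 372 in Cxcr3-/-. The highest knockout library, at 453, stood below the lowest WT library, at 643, and the 2 knockouts overlapped with each other. The means were 717 ± 92.5 in WT, 369 ± 38.1 in Cxcl10-/- and 398 ± 47.5 in Cxcr3-/- (SD, n = 3). The log2 fold change of both knockouts was -0.98 ± 0.125 (SE; adjusted p = 0.0044, edgeR), with -1.05 ± 0.150 for Cxcl10-/- and -0.91 ± 0.150 for Cxcr3-/-. The difference between the knockouts was 0.14 ± 0.148 (adjusted p = 0.601). Against WT on its own, Cxcr3-/- had an adjusted p of 0.272. Without WT replicate 1 the call of Rgs18 ended (-0.85, adjusted p = 0.0591). After a correction of each library for GC content and transcript length the change was -0.33 (adjusted p = 0.363); the longest annotated transcript of Rgs18 has a GC content of 33.4%.

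Sdcbp encodes syntenin-1, a scaffold with PDZ domains that binds syndecans and takes part in membrane trafficking and exosome formation. It stood at 620, 524 and 469 FPKM in WT, 254, 265 and 321 in Cxcl10-/- and 308, 375 and 379 in Cxcr3-/-. All 6 knockout libraries were below the lowest WT library, and the Cxcl10-/- and Cxcr3-/- libraries overlapped in part. The change was -0.82 ± 0.132 for both knockouts (adjusted p = 0.0342, edgeR), -0.998 ± 0.158 for Cxcl10-/- and -0.64 ± 0.157 for Cxcr3-/-. The difference between the knockouts was 0.35 ± 0.157 (adjusted p = 0.175). Without WT replicate 1, 2 or 3 the adjusted p was 0.368, 0.216 and 0.0729, without Cxcr3-/- replicate 1 or 3 it was 0.0711 and 0.0939, and after the GC and length correction the change was -0.59 (adjusted p = 0.123). The call also ended without the mitochondrial genes (0.0878) and in limma on log2(FPKM + 0.1) (0.0586).

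Rpsa, the only shared gene that was higher, encodes the small-subunit ribosomal protein uS2, which also gives rise to the laminin receptor. It stood at 1063, 1177 and 1321 FPKM in WT, 2169, 2037 and 1967 in Cxcl10-/- and 1691, 1439 and 1666 in Cxcr3-/-. Here the 3 groups did not overlap at all, with Cxcr3-/- between WT and Cxcl10-/-. The change was 0.52 ± 0.0914 for both (adjusted p = 0.0496, edgeR), 0.70 ± 0.104 for Cxcl10-/- and 0.35 ± 0.103 for Cxcr3-/-, and the knockouts differed by -0.35 ± 0.103 (Cxcr3-/- minus Cxcl10-/-, adjusted p = 0.0513). Its ratio of the smaller to the larger change, 0.502, lay just inside the limit of 0.5 and was 0.483 with median-of-ratios scaling, which also ended the call (adjusted p = 0.0537). Just outside lay the sterol oxidase gene Msmo1 at 0.44 and the ribosomal protein gene Rpl8 at 0.398. Rpsa was not called without WT replicate 1, 2 or 3 (adjusted p = 0.441, 0.324 and 0.112), Cxcl10-/- replicate 1 (0.0560) or Cxcr3-/- replicates 1 or 3 (0.0923 and 0.163), without the mitochondrial genes (0.0878), with edgeR's own filter on low counts (0.0646), nor after the GC and length correction (0.50, adjusted p = 0.0962). Rpsa has processed pseudogenes, so its share of the reads depends on how the authors' counting split them. With the 6 knockout libraries as 1 group in edgeR none of the 3 genes was called (adjusted p = 0.274 for Rgs18 and 0.767 for Sdcbp and Rpsa). All 3 were also called by limma on log2(FPKM + 1), limma-voom with weights per genotype, and DESeq2. The ratio of Rpsa was 0.482 in DESeq2 and 0.490 in limma-voom, under the limit of 0.5, so Rpsa was not a shared gene there.

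**Figure D1:**
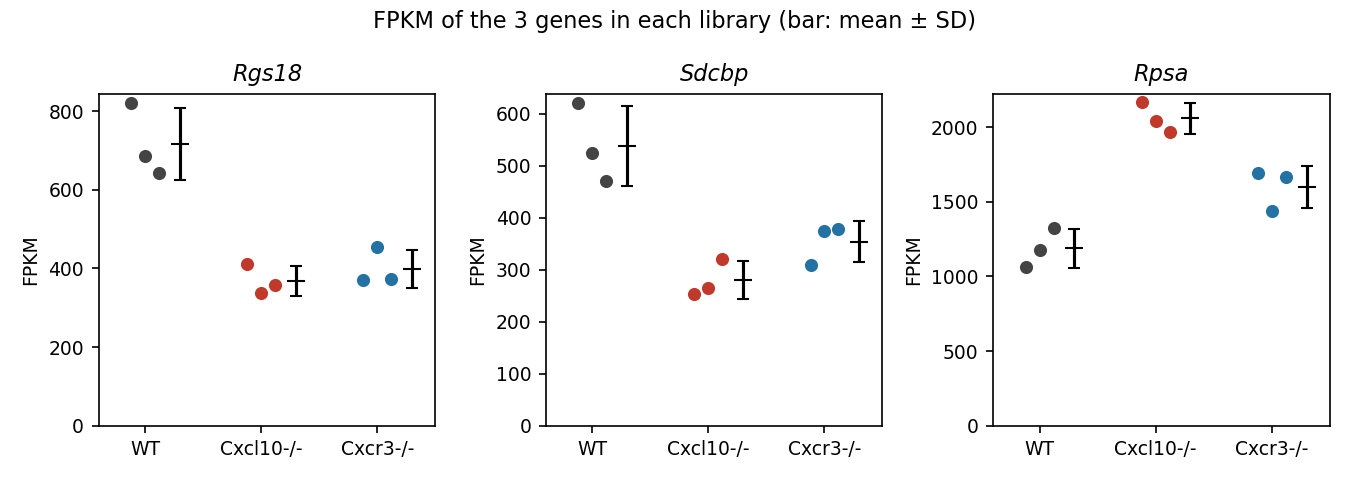
FPKM (y axis, from 0) of Rgs18, Sdcbp and Rpsa in the 3 WT, 3 Cxcl10-/- and 3 Cxcr3-/- libraries; dots are libraries and the bar beside them is the mean ± SD. Every knockout dot lies below every WT dot for Rgs18 and Sdcbp and above every WT dot for Rpsa.

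The other 16 called genes did not have similar sizes in the 2 knockouts. Of the 13 protein-coding genes of the mitochondrial genome 9 were called lower. The largest fall was that of mt-Atp8, a subunit of ATP synthase: -3.41 in Cxcl10-/- and -0.89 in Cxcr3-/-. Its level was 6927, 5540 and 5884 FPKM in WT, 933, 452 and 464 in Cxcl10-/- and 3178, 4157 and 3036 in Cxcr3-/-. For mt-Atp6, its neighbour in the same complex, the changes were -2.58 and -0.46, and for mt-Cytb, the cytochrome b gene of complex III, -2.45 and -0.64. These 3 genes had no overlap between the 6 knockout libraries and WT. The cytochrome oxidase gene mt-Co3 (-1.56 and -0.14) and the complex I gene mt-Nd1 (-1.54 and 0.03) overlapped with WT in the FPKM of Cxcr3-/-. After the GC and length correction 3 of the 19 called genes were still called: mt-Atp6 (-0.93), mt-Cytb (-1.10) and mt-Co1 (-0.50). The other called mitochondrial genes lost the call, from mt-Atp8 at -1.35 (adjusted p = 0.0564, edgeR) to mt-Nd4 at -0.015 (adjusted p = 0.986). The sterol synthesis genes Msmo1 (-1.98 and -0.87) and Idi1, an isomerase of isoprenoid units (-2.54 and -0.30), fell as well; Msmo1 stood at 73.6, 65.7 and 50.9 FPKM in WT, 19, 15.4 and 17.1 in Cxcl10-/- and 25.1, 45.0 and 38.3 in Cxcr3-/-, with no overlap. B2m, the light chain of MHC class I (-1.20 and -0.16), the membrane glycoprotein gene Tmem123 (-1.45 and -0.32) and the spindle gene Nusap1 (-5.33 and -0.13) fell mainly in Cxcl10-/-. The kinesin gene Kif18b had 0, 2 and 0 counts in Cxcl10-/-, 131, 284 and 184 in WT and 136, 278 and 246 in Cxcr3-/-; WT was 291-fold above Cxcl10-/- (95% counting interval 80.1 to 2406, exact, counting error only). Rpl8, the only other gene called higher, rose by 1.04 in Cxcl10-/- and stood 0.41 above WT in Cxcr3-/-, from 694, 755 and 828 FPKM in WT to 1720, 1540 and 1703 and to 1135, 897 and 1135. Without the mitochondrial genes, Rgs18 was the sole gene called (adjusted p = 0.0492).

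**Figure D2:**
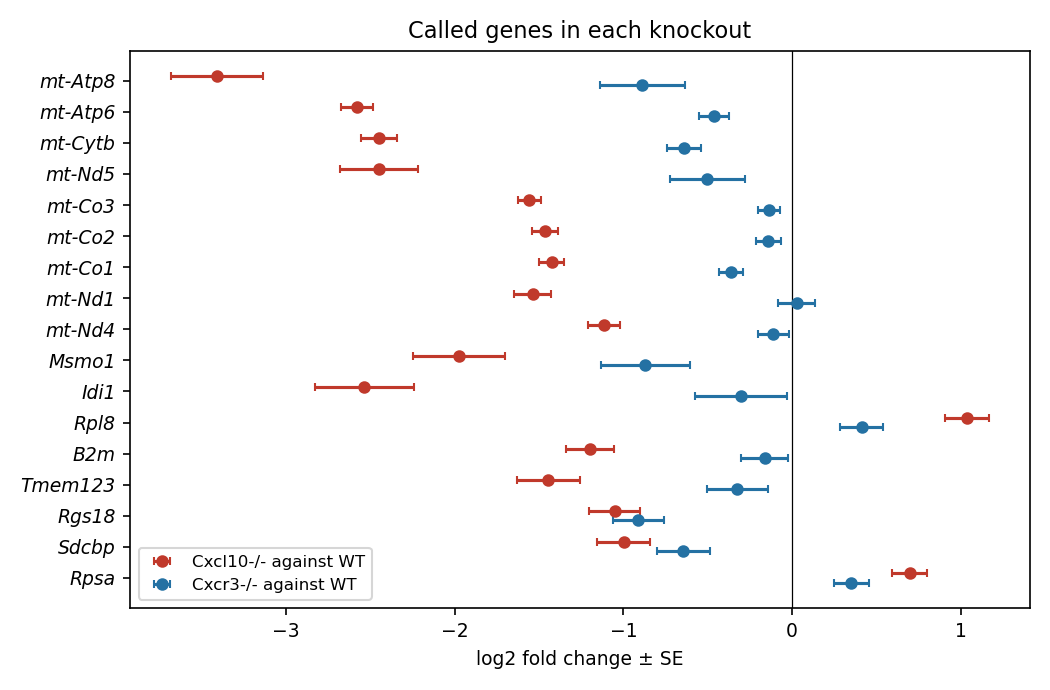
Log2 fold change ± SE (x axis) of 17 of the 19 called genes in Cxcl10-/- (red) and Cxcr3-/- (blue) against WT. Nusap1 and Kif18b, whose falls in Cxcl10-/- were larger than all those drawn, are left out. The 2 dots lie close together for Rgs18 and far apart for the mitochondrial genes, such as mt-Atp6 at -2.58 and -0.46.

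Of the 10866 genes, 238 (2.19%) had all 6 knockout libraries above the 3 WT libraries in both units and 175 (1.61%) had all 6 below. Among these, 158 higher (1.45%) and 124 lower (1.14%) had the same sign and similar size in both knockouts. These 282 genes are described from here on without a call; the condition was dropped after the data had shown that it left 3 genes, and since no overlap chose the 282, their direction is no test. Their changes were mostly under 2-fold: 205 of 282 were under 1 on the log2 scale. The median of the higher genes was 0.79 in Cxcl10-/- and 0.66 in Cxcr3-/-, and that of the lower genes -0.84 and -0.71, beside a median over all genes tested of 0.06 and 0.02. The change was larger in Cxcl10-/- for 209 of the 282 and larger in Cxcr3-/- for 73, and none of the 282 was called between the knockouts by edgeR. The size limit had left out genes with very unequal changes, so this lack of calls is no test of equal effects. The test of both knockouts by edgeR, limma on log2(FPKM + 1), limma-voom with weights per genotype and DESeq2 gave an adjusted p under 0.05 in at least 1 of the 4 tools for 92 genes, in at least 2 for 49 (12 higher, 37 lower), and in at least 3 for 6: Rgs18, Sdcbp, Rpsa, Actb, H2-K1 and the pseudogene Rpl10-ps3, whose reads cannot be told from those of Rpl10.

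**Figure D3:**
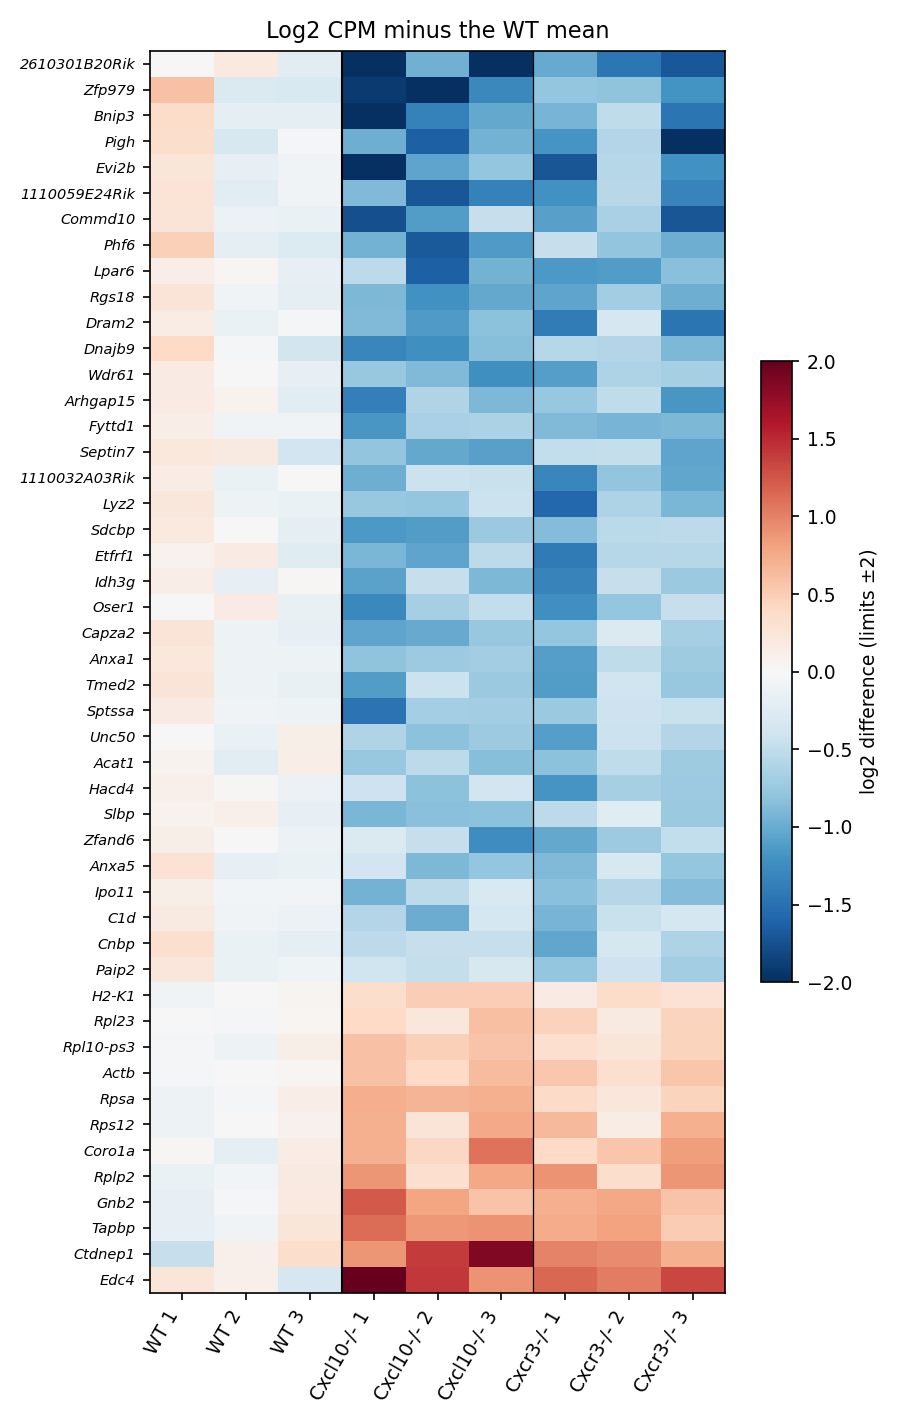
Log2 CPM minus the WT mean (colour, limits ±2) of 48 of the 49 genes that had no overlap and similar size and were called by at least 2 of 4 tools; columns are the 9 libraries. Rows run from the largest fall to the largest rise: 36 genes are lower and 12 higher in all 6 knockout libraries, as the choice of genes fixes.

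Genes of the cytoplasmic ribosome were among the higher ones. Of 81 tested, 10 were higher and 1 lower with no overlap and similar size (13.6%, beside 2.60% of all genes tested). Without regard to size, 18 lay above WT in all 6 libraries, beside 2.19% of all genes tested. Called higher were 2, Rpl8 and Rpsa, beside 0.0184% of all genes tested. The median of the 81 was 0.31 in Cxcl10-/- and 0.22 in Cxcr3-/-. Of the other 203 genes with at least 500 FPKM, 5 were higher and 5 lower in the same way, beside 1.45% and 1.14% of all genes tested. Rplp2, an acidic stalk protein that recruits elongation factors, stood at 1316, 1474 and 1747 FPKM in WT, 3020, 2076 and 2629 in Cxcl10-/- and 3056, 1976 and 2896 in Cxcr3-/-. The changes were almost equal, at 0.68 and 0.72 (both 0.70 ± 0.161, adjusted p = 0.102, edgeR). Rps12, of the small subunit, stood at 1675, 1921 and 2036 FPKM in WT, 3342, 2475 and 3258 in Cxcl10-/- and 3173, 2150 and 3154 in Cxcr3-/-, or 0.59 and 0.52. Rpl23 (0.42 and 0.37), Rpl23a (0.40 and 0.28) and Rps24 (0.21 and 0.24; both 0.22, and 0.37 after the GC and length correction) had smaller changes. Ribosomal protein genes have many processed pseudogenes, so single values are uncertain. Among 49 ribosome biogenesis genes 3 were higher (6.12%, beside 1.45% of all genes tested): Noc2l, Gar1 and Rrp9. The adjusted p of both knockouts was 0.620 for Gar1 and 0.631 for Rrp9 (edgeR). Noc2l, a nucleolar and histone-binding protein gene, stood at 23 to 28.6 FPKM in WT and 35.5 to 46.7 in the knockouts (both 0.65, and 0.37 after the correction). Of 54 translation initiation factor genes 3 were higher (5.56%, beside the same 1.45%): Eif4h, a helicase cofactor (0.50 and 0.29), Eif3b, a scaffold of eIF3 (0.53 and 0.44), and Eif3j1 (0.28 and 0.36). The correction took Eif4h from 0.40 to 0.13, Eif3b from 0.49 to 0.20 and Eif3j1 from 0.32 to 0.51. None of the 78 genes of the mitochondrial ribosome was in the set, and their median was 0.37 in Cxcl10-/- and -0.24 in Cxcr3-/-.

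Most genes of MHC class I and peptide loading had a positive change in both knockouts: 14 of 22 tested, beside 3402 of all 10866. The 1 gene with a negative change in both, beside 2769 of all, was B2m. Of 22 tested, 4 (18.2%, beside 1.45% of all genes tested) were higher with no overlap and similar size (H2-K1, H2-D1, Tapbp and Tap1), 3 more had no overlap but unequal sizes (Calr, Psmb9 and H2-Q7), and B2m was called lower. The median was 0.46 in Cxcl10-/- and 0.24 in Cxcr3-/-, and 0.15 for both after the GC and length correction, against 0.36 without it. That correction took Tapbp from 0.82 to 0.51, Tap1 from 0.73 to 0.44, H2-K1 from 0.36 to 0.22 and H2-D1 from 0.38 to 0.16. Tapbp encodes tapasin, which holds class I molecules to the peptide transporter. It stood at 21.5, 24.2 and 30.0 FPKM in WT, 57, 49.5 and 47.7 in Cxcl10-/- and 44.8, 45.7 and 37.0 in Cxcr3-/- (both 0.82 ± 0.176, adjusted p = 0.0973, edgeR; 0.0228 in voom and 0.00187 in DESeq2). Tap1, a subunit of that transporter, stood at 12.8, 18.3 and 17.7 FPKM in WT, 30.6, 31.1 and 27.3 in Cxcl10-/- and 25.5, 27.7 and 27.3 in Cxcr3-/- (0.78 and 0.68). The heavy chain gene H2-K1 stood at 1078, 1232 and 1254 FPKM in WT, 1714, 1727 and 1766 in Cxcl10-/- and 1643, 1664 and 1638 in Cxcr3-/- (0.44 and 0.28). H2-D1 stood at 245 to 345 in WT and 380 to 479 in the knockouts (0.48 and 0.28). H2-K1 and H2-D1 are near-identical copies in part, so their split is uncertain. B2m differed from its heavy chains: 10145, 10407 and 9332 FPKM in WT, 4761, 5034 and 4112 in Cxcl10-/- and 7304, 11209 and 9316 in Cxcr3-/-, where it overlapped with WT. Of 43 interferon response genes 1 was higher and 1 lower (4.65%, beside 2.60% of all genes tested). The higher was Irf1, a transcription factor gene that drives class I and peptide-loading genes, at 21.4, 33.6 and 35.3 FPKM in WT, 54.3, 47.7 and 48.7 in Cxcl10-/- and 53.5, 57.4 and 49.6 in Cxcr3-/- (both 0.71 ± 0.189, adjusted p = 0.156, edgeR; 0.0262 in DESeq2). The lower was the ubiquitin ligase gene Herc6 (-0.50 and -0.61; both -0.56, and -0.26 after the correction). The median of the 43 was 0.12 in Cxcl10-/- and -0.21 in Cxcr3-/-.

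Promoters at hand included those of Rpsa, Tap1, Tapbp, H2-K1 and Irf1. Shown are those of the shared gene Rpsa and of Tap1 and Tapbp, which moved together. Each is the 250 bases before the start in RefSeq on GRCm38.p6; Rgs18, Sdcbp and Actb are named only. Capitals mark matches, on either strand, to a CCAAT box (CCAAT), an ETS site (CCGGAAG) or a GC box (GGGCGG).
Rpsa: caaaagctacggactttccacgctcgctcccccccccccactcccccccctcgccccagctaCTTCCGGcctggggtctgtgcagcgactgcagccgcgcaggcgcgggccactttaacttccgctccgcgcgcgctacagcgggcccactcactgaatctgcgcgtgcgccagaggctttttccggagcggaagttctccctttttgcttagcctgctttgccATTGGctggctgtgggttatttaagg
Tap1: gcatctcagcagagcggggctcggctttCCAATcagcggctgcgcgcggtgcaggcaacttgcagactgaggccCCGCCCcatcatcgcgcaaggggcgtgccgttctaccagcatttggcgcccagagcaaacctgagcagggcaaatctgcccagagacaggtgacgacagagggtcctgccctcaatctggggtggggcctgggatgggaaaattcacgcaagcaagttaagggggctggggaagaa
Tapbp: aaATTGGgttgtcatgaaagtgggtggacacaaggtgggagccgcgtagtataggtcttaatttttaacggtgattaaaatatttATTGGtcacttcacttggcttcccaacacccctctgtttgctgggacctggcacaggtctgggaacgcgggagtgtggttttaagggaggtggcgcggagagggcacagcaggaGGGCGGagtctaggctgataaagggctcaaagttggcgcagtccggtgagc
Counted from 1 at the 5′ end, Rpsa, at chr9:120127516-120127765 on the plus strand, holds a reversed ETS site at 63 and a reversed CCAAT box at 225. Tap1, at chr17:34187306-34187555 on the plus strand, holds a CCAAT box at 29 and a reversed GC box at 75, and Tapbp, at chr17:33919228-33919477 on the plus strand, reversed CCAAT boxes at 3 and 86 and a GC box at 200. A CCAAT box was in 37.2% of the 8759 promoters of tested genes, in 34.8% of the 135 promoters of the higher genes and in 35.1% of the 94 of the lower genes. An ETS site was in 15.3%, 13.3% and 16.0% and a GC box in 59.6%, 60% and 52.1%. The interferon-stimulated response element (TTTCNNTTT) was in 7.07% of tested genes, in 4 of the 135 (2.96%) and in 8 of the 94 (8.51%); a GATA site (AGATAA) was in 5.70%, 0.741% and 3.19%. The other motifs searched were a TATA box (TATAAA, 6.12%, 5.93% and 6.38%), an AP-1 site (TGACTCA, 2.80%, 2.22% and 5.32%), a cAMP response element (TGACGTCA, 2.73%, 2.96% and 2.13%), an E-box (CACGTG, 8.64%, 10.4% and 10.6%), an E2F site (TTTCCCGC, 1.94%, 1.48% and 3.19%), an NRF1 site (GCGCATGCG, 3.29%, 2.22% and 1.06%) and a YY1 site (AAGATGGCG, 1.27%, 0% and 1.06%). These windows had a median GC content of 59.6% in tested genes, 60.8% in the higher and 58.8% in the lower genes.

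Actin and its regulators were split. Of 38 tested, 3 were higher and 2 lower with no overlap and similar size (13.2%, beside 2.60% of all genes tested). None was called by edgeR, and the median was 0.06 in Cxcl10-/- and -0.13 in Cxcr3-/-. Actb, the gene of cytoplasmic beta-actin, stood at 723, 764 and 797 FPKM in WT, 1234, 1096 and 1208 in Cxcl10-/- and 1194, 988 and 1144 in Cxcr3-/-. The lowest knockout library, at 988, exceeded the highest WT library, at 797, in a gene often used as a reference for others. Its change was 0.51 ± 0.0937 (adjusted p = 0.0582, edgeR; 0.0375 in limma, 0.00594 in voom and 0.000381 in DESeq2), with 0.55 and 0.48 in the 2 knockouts, and 0.47 after the GC and length correction. Coro1a, which encodes the leukocyte actin-binding protein coronin-1A, stood at 66.4, 59.0 and 75.4 FPKM in WT, 117, 96.9 and 143 in Cxcl10-/- and 94.1, 101 and 122 in Cxcr3-/- (0.76 and 0.60). Vasp, an actin elongation factor gene, was also higher (0.54 and 0.47). Capza2, a subunit of the protein that caps actin filaments, was lower: 314, 257 and 246 FPKM in WT, 141, 146 and 163 in Cxcl10-/- and 170, 226 and 174 in Cxcr3-/- (-0.94 and -0.57). Arpc3, a subunit of the branching Arp2/3 complex, was lower as well (-0.49 and -0.78). The GC and length correction took Capza2 from -0.76 to -0.32, Coro1a from 0.68 to 0.44 and Vasp from 0.50 to 0.21, and left Arpc3 at -0.59 against -0.63.

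**Figure D4:**
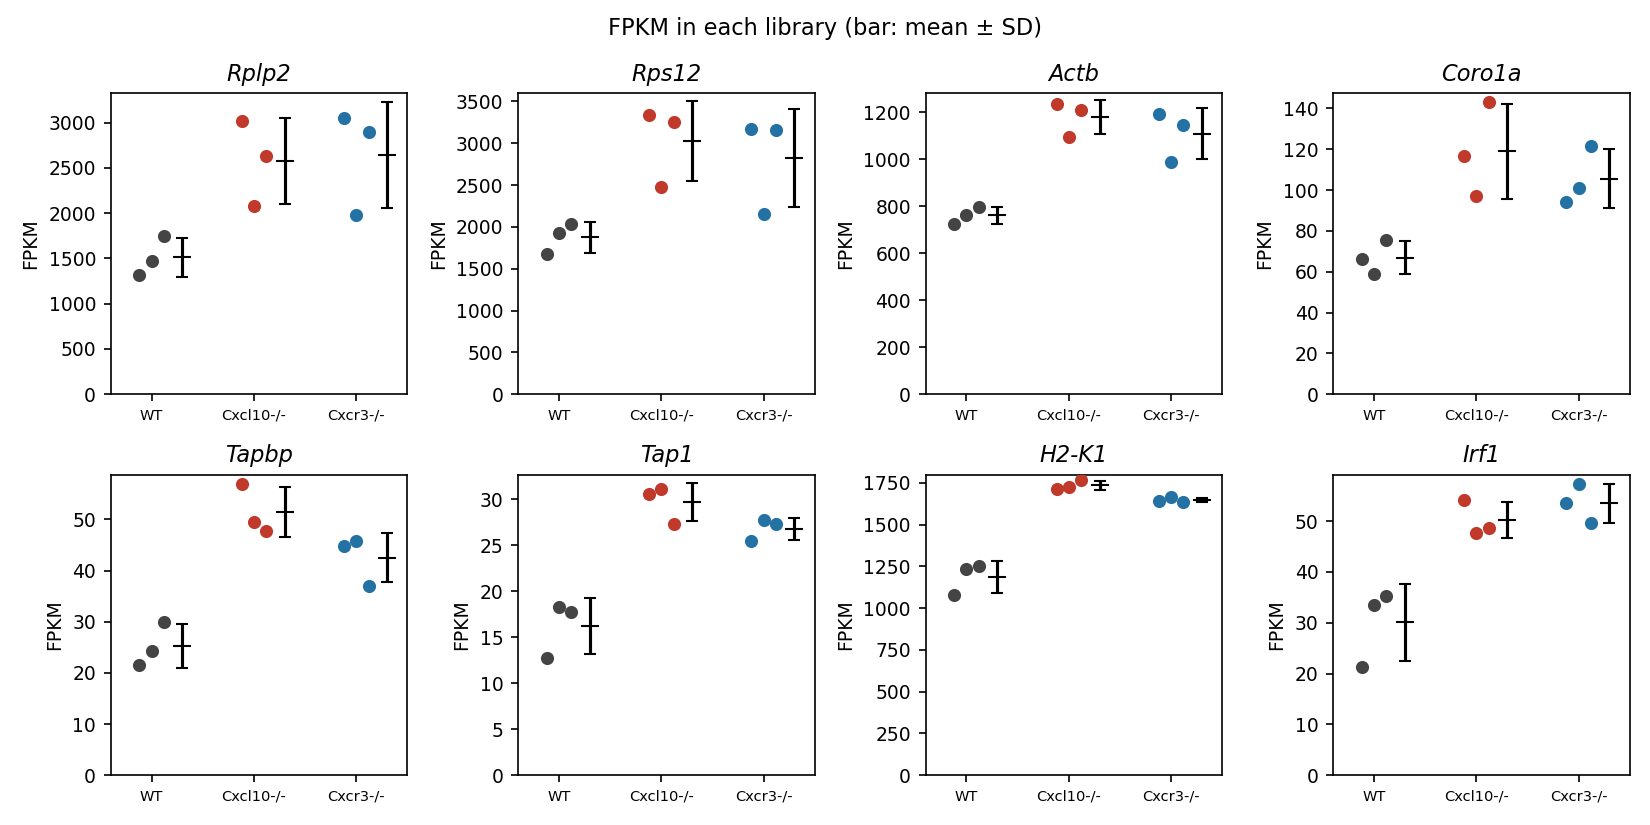
FPKM (y axes, from 0) of 2 ribosomal protein genes (Rplp2, Rps12), 2 actin genes (Actb, Coro1a) and 4 genes of class I presentation and its regulation (Tapbp, Tap1, H2-K1, Irf1) in each library; dots are libraries and the bar is the mean ± SD. All 6 knockout dots lie above the 3 WT dots in each panel, as for H2-K1 with 1638 to 1766 against 1078 to 1254.

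Some further genes of the set were picked after their values were seen, so they stand for no group. Anxa1, Anxa4 and Anxa5 encode annexins, which bind membrane phospholipids when calcium rises. Anxa1 stood at 251, 211 and 214 FPKM in WT, 140, 149 and 141 in Cxcl10-/- and 113, 162 and 140 in Cxcr3-/- (both -0.76 ± 0.147, adjusted p = 0.0724, edgeR). Its changes were -0.75 and -0.77 in the 2 knockouts, those of Anxa5 -0.68 and -0.65 and those of Anxa4 -0.74 and -0.56, while Anxa11 was higher by 0.61 and 0.63. After the GC and length correction the change of both knockouts was -0.50 for Anxa1 and 0.36 for Anxa11, against 0.62 before. Tmed2, a cargo receptor gene of vesicles between endoplasmic reticulum and Golgi (-0.75 and -0.74), and Septin7, a filament protein gene (-0.98 and -0.67; both -0.83, and -0.36 after that correction), were lower too. Pigh, of the first step of GPI anchor synthesis, stood at 20.2 to 31.2 FPKM in WT and 6.33 to 17.4 in the knockouts (-1.20 and -1.18). Wdr61, a subunit of complexes that bind elongating RNA polymerase and degrade RNA, stood at 368, 345 and 317 FPKM in WT, 221, 199 and 150 in Cxcl10-/- and 168, 228 and 217 in Cxcr3-/- (both -0.87 ± 0.153, adjusted p = 0.053, edgeR).

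Lists of metabolism and stress held few or none of the 282. Glycolysis and hypoxia (3.33%), cholesterol and fatty acid synthesis (2.94%) and stress response (6.25%) held 1 or 2 genes each, beside 2.60% of all genes tested. Antioxidant and iron (26 tested), lysosome and autophagy (38) and nuclear respiratory chain (79) genes held none. At 2.60% lists of this length would hold few genes each, so no difference between the lists is read from these counts. The mitophagy receptor gene Bnip3, 1 of 30 genes of glycolysis and hypoxia, stood at 64.9 to 91.4 FPKM in WT and 16.8 to 52.9 in the knockouts (-1.49 and -0.94). Fdps, of farnesyl diphosphate synthesis, was the one gene of 34 in cholesterol and fatty acid synthesis with no overlap and similar size together (-1.32 and -0.79, adjusted p = 0.232, edgeR), beside the called Msmo1 and Idi1. Acat1, a thiolase gene of ketone body metabolism (-0.72 and -0.68), and Idh3g, a subunit of isocitrate dehydrogenase (-0.79 and -0.81), had near-equal changes. Of 32 stress response genes Atf4, the transcription factor gene of the integrated stress response, was higher at 39.6 to 68.3 FPKM in the knockouts against 28.5 to 31.4 in WT (0.86 and 0.57), and the endoplasmic reticulum co-chaperone gene Dnajb9 was lower at 23.8 to 39.4 against 43.1 to 69.3 (-1.15 and -0.71). Nfkbie, an inhibitor of NF-kB, was higher at 4.76 to 12.5 FPKM against 1.45 to 2.72 (2.14 and 1.18), as was Stat3, a transcription factor gene of cytokine signalling, at 21.5 to 32.6 against 14.7 to 18.1 (0.76 and 0.44).

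Stem cell and cell cycle lists are given with the number of the 282 they held, beside 2.60% of all genes tested. None of 26 genes of HSC identity, 24 of self-renewal and 25 of quiescence had no overlap together with similar size, and none was called; at 2.60% lists of this length would hold under 1 gene each. The medians were 0.04, 0.17 and 0.27 in Cxcl10-/- and -0.09, 0.15 and 0.19 in Cxcr3-/-. Hoxa10, 1 of 13 tested Hox genes and a regulator of progenitor growth, was higher at 7.49 to 14.3 FPKM in the knockouts against 4.07 to 6.64 in WT (1.23 and 0.98, adjusted p = 0.2, edgeR). Of 36 Polycomb and DNA methylation genes Eed, a core subunit of PRC2, was lower (-0.54 and -0.56) and Ring1, a ubiquitin ligase of PRC1, higher (1.59 and 1.13). Of 37 S phase genes 4 were in the set (10.8%): Ung (uracil-DNA glycosylase), Mcm3 (a subunit of the replicative helicase) and E2f1 were higher and Slbp, which binds the stem-loop of histone mRNA, was lower at 144, 145 and 144 FPKM in Cxcl10-/-, 198, 216 and 153 in Cxcr3-/- and 245, 265 and 222 in WT (-0.86 and -0.50). E2f1 stood at only 1.06 to 1.94 FPKM in WT, with an adjusted p of 0.619 for both knockouts (edgeR). None of the 36 genes of G2 and mitosis was in the set, with medians of -1.57 and 0.14. Of 290 zinc finger genes named Zfp, 2 were higher and 7 lower, with a median of -0.31 and -0.12; Zfp979 stood at 23.4 to 35.9 FPKM in WT and 3.54 to 20.8 in the knockouts (both -1.46, and -0.91 after the GC and length correction). Lyz2, the lysozyme gene of myeloid cells, was lower at 210 to 441 FPKM against 543 to 661 (-0.65 and -0.99), the one member of 9 in myeloid priming.

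Among the 282, those with a mean of at least 5 FPKM in WT or the knockouts, predicted genes and RIKEN clones aside, were ranked by change, and some of the largest are given. Among the higher ones, Ccdc152 stood at 1.97 to 4.88 FPKM in WT and 6.34 to 28.4 in the knockouts (1.61 and 2.27). Ccdc152 overlaps the selenoprotein P gene Selenop on the opposite strand, and Selenop itself was lower (-0.47 and -0.32; both -0.39, and -0.19 after the GC and length correction); without a stated strand, reads from the pair cannot be told apart. Cox11, an assembly factor gene of cytochrome oxidase, stood at 3.43 to 7.02 FPKM in WT and 9.04 to 34.1 in the knockouts (1.91 and 1.61). Edc4, a scaffold of mRNA decapping, stood at 3.39, 3.14 and 2.35 in WT, 17.5, 8.63 and 5.64 in Cxcl10-/- and 7.15, 6.36 and 7.71 in Cxcr3-/- (1.74 and 1.18). Among the lower ones, the histone gene H3c6 stood at 3.11 to 8.15 FPKM in WT and 0 to 1.97 in the knockouts, and as a member of a family of near-identical genes its value is uncertain. Gulp1, an adaptor gene for engulfment of dying cells, stood at 9.88 to 11.7 FPKM in WT and 1.82 to 7.48 in the knockouts (-1.87 and -1.51).

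The 282 genes differed in base composition. The median GC content of the longest annotated transcript was 54.8% for the 158 higher genes, 43.4% for the 124 lower genes and 49.1% for all 10856 tested genes with a value. Among the 2714 genes with the least GC 9 were higher and 70 lower, and among the 2714 with the most, 87 were higher and 5 lower. Across genes, which are not independent replicates, Spearman's rho of GC content with the log2 fold change was 0.433 in Cxcl10-/- and 0.188 in Cxcr3-/-. After each library had been corrected for GC content and length, 134 of the 282 still had no overlap and similar size, 66 higher and 68 lower, and all 282 kept the sign of their change. Of the 49 genes called by at least 2 tools, 29 did. Their median was -0.59 after correction against -0.82 before for the lower genes and 0.52 against 0.62 for the higher genes. Rgs18 was among those that no longer had similar size (ratio 0.137). The part of base composition in these differences was not tested beyond this correction. Nor was the part of the mitochondrial share or of endothelial and stromal transcripts; in Cxcr3-/- the latter sums overlapped with WT.

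**Figure D5:**
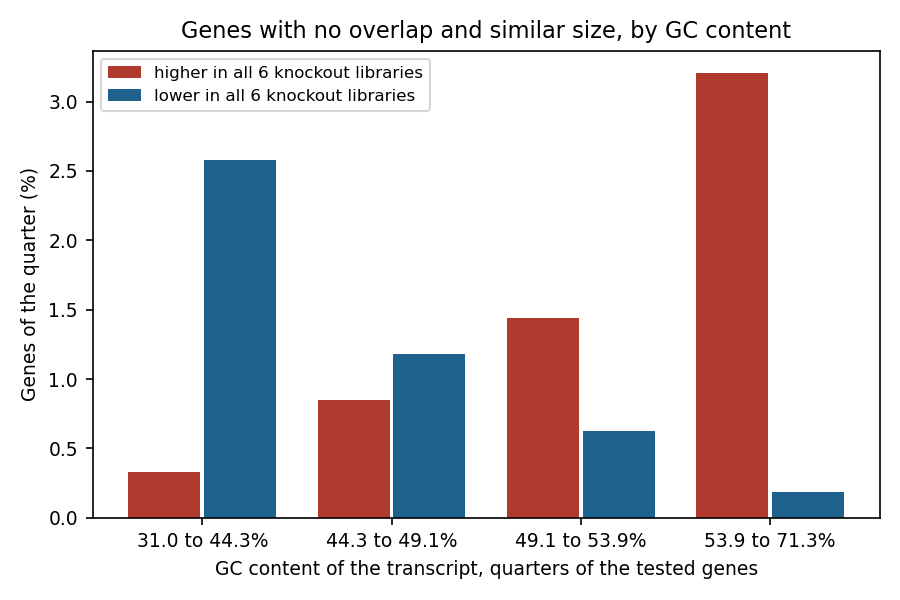
Percent of the genes of each of 4 classes of transcript GC content (x axis, ranges in percent; 2714 genes each) with all 6 knockout libraries above (red) or below (blue) WT and similar size in both knockouts. The red bars rise from 0.332% to 3.21% and the blue bars fall from 2.58% to 0.184%.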

How the data were processed

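RNA of 500 to 800 sorted cells per library was sequenced in 9 libraries, 3 per genotype. Per the file headers, the authors deposited FPKM and counts per gene. The expected counts were made by the authors before deposit, per the file headers, by a step not named there; 32.5% of the values are 0 and 80.9% of those above 0 are whole within 1e-09, the rest being fractions. Tools listed in the submitters' processing notes are RSEM, StringTie, HISAT2 and fastp; neither versions, build, annotation nor strand and FPKM denominator are given in those sources. The counts carry no molecular identifiers, so intervals cover counting error only. The replicates are separate mice, per the labels' design text.

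Expected counts were rounded and fitted with edgeR 4.0.16 (quasi-likelihood test, TMM factors, 1 mean per genotype, R 4.3.3) for genes averaging 1 FPKM or more, and p-values were adjusted with Benjamini-Hochberg over all 10866. Scripts were tested on simulated data. The SE is the size of the log2 fold change divided by the square root of the F statistic. The alternatives were median-of-ratios scaling, DESeq2 1.42.0, limma 3.58.1 on log2(FPKM + 1) or log2(FPKM + 0.1), limma-voom with weights per genotype, other filters, no mitochondrial genes, the replicate number as a block, the knockouts as 1 group, a loess correction (span 0.3) for GC content and length from GENCODE M21, and each library left out. An adjusted p that DESeq2 gave as missing was kept as missing.

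The members and the 51 gene lists were chosen with earlier results of these data known. Named genes were Cxcl10, Cxcr3, Cxcl9 and Cxcl11, all called genes, and per direction the 15 shared genes with the largest change at 5 FPKM or more, the 5 most abundant and those nearest the size limit, with up to 4 shared and 2 called genes per list. The set of 282 without the call, the naming rule applied to it, and the count of tools were added after the data had been seen. Wdr61, Septin7, Tmed2, Acat1, Idh3g, Vasp, Selenop, Calr, Psmb9, H2-Q7, Rpl10-ps3 and the annexins were named after their values were seen. Some genes picked by these rules are not reported here. Promoters are from RefSeq.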

Additional observations from a re-analysis of the deposited data

Results flagged for a closer look

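In 16 of the 19 called genes the effect differed between the knockouts by a test of the difference itself (edgeR's quasi-likelihood test, Benjamini-Hochberg adjusted). The values are the log2 level in Cxcr3-/- minus that in Cxcl10-/-, 3 libraries each. For genes of the mitochondrial genome it was 2.12 for mt-Atp6, 1.81 for mt-Cytb, 1.42 for mt-Co3, 1.06 for mt-Co1, 1.32 for mt-Co2, 2.52 for mt-Atp8, 1.57 for mt-Nd1, 1.95 for mt-Nd5 and 1.01 for mt-Nd4. For the sterol synthesis genes it was 1.11 for Msmo1 and 2.23 for Idi1. For the mitotic genes it was 5.20 for Nusap1 and 8.24 for Kif18b, a fitted value that depends on the prior count since Kif18b had 2 counts in all of Cxcl10-/-. It was 1.03 for B2m, 1.12 for Tmem123 and -0.62 for Rpl8. The adjusted p ran from 2.85e-07 for mt-Atp6 to 0.0226 for Msmo1.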

How the results depend on the processing

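The number of genes called in both knockouts against WT, 19, and of shared genes, 3, depended strongly on the settings, and the cause was not tested. In that order they were 291 and 84 with DESeq2, 172 and 51 with limma-voom and weights per genotype, and 42 and 7 with limma on log2(FPKM + 1). They were 223 and 51 with no filter on low values, 6 and 0 with the GC and length correction, and 1 and 1 without mitochondrial genes. With the 6 knockout libraries as 1 group, in a fit with 1 mean for both knockouts, they were 0 and 0. The replicate numbers do not pair the libraries (same-number deviations correlated between -0.079 and 0.017 over 9 pairs); with the replicate number as a block there were 11 and 1 (Rgs18; Sdcbp had an adjusted p of 0.0846 and Rpsa of 0.080, edgeR), and 442 for Cxcl10-/- against WT. With each library left out in turn the ranges were 8 to 61 and 0 to 8. With a size limit of 0.33 or 0.67 there were 5 and 1 shared genes. The 282 genes without the call became 171 with the GC and length correction, 180 with a limit of 0.67, 2429 when overlap was allowed and 349 to 567 with a library left out, which makes no overlap easier to meet. Cxcl10-/- against WT, 785, became 1498 with DESeq2, 1183 with no filter and 193 to 1003 with a library left out. Cxcr3-/- against WT, 0, became 68, 38 with no filter, 42 with voom and 0 to 6. Cxcr3-/- against Cxcl10-/-, 1142, became 1814 with DESeq2, 634 with voom and 423 to 1407. Among the named genes 1705 values kept their direction and side of the threshold, 122 lost the call, 84 gained it and none reversed.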
